A study of Mus musculus with 7 samples.

Results

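The regions analysed here are the stretches of open chromatin assigned to 9 genes that encode transcription factors of the luminal mammary lineage: Gata3, Foxa1, Elf5, Ehf, Elf3, Tfap2a, Tfap2c, Spdef and Tbx3. Open chromatin was measured by ATAC-seq, in which a transposase cuts exposed DNA and leaves sequencing adapters at the cuts. The authors deposited 1 peak list for Dll1+ tumor cells and 1 for Dll1- tumor cells, each pooled over the samples of its group. Rows of both lists were merged where they overlapped or touched, which gave 119215 union regions. A region was assigned to the gene whose transcription start site (TSS) of a protein-coding transcript lay nearest to its midpoint, and 221 of the 119215 regions fell to the 9 genes. The number per gene was 72 for Gata3, 34 for Tfap2c, 31 for Ehf, 19 for Elf5, 18 for Tfap2a, 16 for Tbx3, 12 for Spdef, 10 for Foxa1 and 9 for Elf3. Nearest position does not show which gene a region acts on.

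All 7 samples came from spontaneous mammary tumors of mice that carried both the MMTV-PyMT transgene (Py+ in the labels) and a Dll1-mCherry reporter, so both groups share these alleles. The MMTV promoter is active mainly in mammary epithelium, and polyoma middle T (PyMT) is a viral oncoprotein that gives luminal tumors. Cells that bore CD45, CD31 or Ter119 were sorted away, and the remaining cells were divided by mCherry into Dll1+ and Dll1- cells, so a group is defined by the reporter of Dll1, a Notch ligand. No treatment was named, and ages are not given in the sources used here. The Dll1+ list pooled 3 samples and the Dll1- list 4 samples from 4 tumors. Of the tumors, 3 gave both samples and the remaining tumor gave Dll1- cells only, so a region particular to that tumor and a region particular to Dll1- cells cannot be told apart. Each group has a single value per region, so no difference below could be set against the spread between tumors, and no p-value was computed. Intervals are 95% intervals for counting error only, and since no molecular identifiers were named, reads may be copies of 1 molecule. Within a pooled population, fewer cells with a region open and a less open region in each cell cannot be told apart.

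Luminal cells line the ducts and alveoli of the mammary gland, and basal cells surround them. Sequence-specific transcription factors hold luminal cells in their state, in part by binding enhancers that may lie far from the genes they serve. Gata3 is a zinc finger factor needed for luminal differentiation, and Foxa1 is a forkhead pioneer factor that opens chromatin for the estrogen receptor. Elf5, Ehf, Elf3 and Spdef are epithelial members of the ETS family, of which Elf5 drives the alveolar fate. Tfap2a and Tfap2c encode AP-2 factors, and Tbx3 is a T-box factor required for the mammary placode. Activator protein 1 (AP-1), a dimer of Jun and Fos proteins, binds a short sequence that is common in enhancers.

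Sequences at the extremes of 5 of the genes are shown first. Each is a 151 bp window centered on the strongest summit of the region, on the plus strand of GRCm38. Capitals mark a match to the AP-1 consensus TGANTCA or to the ETS consensus AGGAAG on either strand. The first 5 regions ranked lower in the Dll1+ list than in the Dll1- list or were in the Dll1- list only.
Gata3 region with the largest difference towards Dll1-, chr2:9343379-9343529: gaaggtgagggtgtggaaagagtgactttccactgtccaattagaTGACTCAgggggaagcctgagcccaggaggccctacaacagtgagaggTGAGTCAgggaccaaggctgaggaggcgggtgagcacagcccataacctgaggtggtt
Tfap2a region with the largest difference towards Dll1-, chr13:40683876-40684026: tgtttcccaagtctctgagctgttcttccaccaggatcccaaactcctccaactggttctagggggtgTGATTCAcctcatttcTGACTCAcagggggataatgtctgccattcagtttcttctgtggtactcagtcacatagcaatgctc
Elf5 region with the largest difference towards Dll1-, chr2:103382274-103382424: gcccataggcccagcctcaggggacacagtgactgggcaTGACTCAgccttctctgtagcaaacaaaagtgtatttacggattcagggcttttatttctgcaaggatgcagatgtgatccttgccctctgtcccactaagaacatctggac
Ehf region with the largest difference towards Dll1-, chr2:103343733-103343883: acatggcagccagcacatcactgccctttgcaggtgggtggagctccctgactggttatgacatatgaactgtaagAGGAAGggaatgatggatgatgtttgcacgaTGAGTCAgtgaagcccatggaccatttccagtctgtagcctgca
Tbx3 strongest region in the Dll1- list only, chr5:119167926-119168076: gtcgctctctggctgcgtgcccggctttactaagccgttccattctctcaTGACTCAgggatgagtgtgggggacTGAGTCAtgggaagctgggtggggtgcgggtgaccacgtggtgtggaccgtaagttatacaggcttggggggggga

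The next 4 regions ranked higher in the Dll1+ list or were in the Dll1+ list only, and are printed for contrast.
Gata3 region with the largest difference towards Dll1+, chr2:9032581-9032731: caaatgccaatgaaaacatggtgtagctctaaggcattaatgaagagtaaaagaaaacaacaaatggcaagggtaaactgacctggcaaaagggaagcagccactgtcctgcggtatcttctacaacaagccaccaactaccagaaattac
Tfap2a region with the largest difference towards Dll1+, chr13:40694580-40694730: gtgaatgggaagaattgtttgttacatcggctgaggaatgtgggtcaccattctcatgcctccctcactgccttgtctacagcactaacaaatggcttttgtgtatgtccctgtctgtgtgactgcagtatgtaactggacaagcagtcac
Tbx3 region with the largest difference towards Dll1+, chr5:119204996-119205146: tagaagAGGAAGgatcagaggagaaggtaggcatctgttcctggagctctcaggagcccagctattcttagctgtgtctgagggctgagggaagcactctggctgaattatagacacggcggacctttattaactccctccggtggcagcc
Ehf strongest region in the Dll1+ list only, chr2:103183636-103183786: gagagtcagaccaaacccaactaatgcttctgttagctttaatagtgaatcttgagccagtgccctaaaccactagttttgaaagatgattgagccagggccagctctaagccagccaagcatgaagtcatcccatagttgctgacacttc

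The Gata3, Tfap2a and Tbx3 windows of the first set each hold a pair of AP-1 matches, and the Elf5 and Ehf windows hold 1 each. No window of the second set holds an AP-1 match, and the Tbx3 window there holds 1 ETS match. None of the 9 windows overlaps an annotated exon of a coding gene. The windows were chosen among the extremes of the genes after their sequences were seen, to show the AP-1 matches, so the contrast among them is no result. Extremes without this contrast are not printed. In windows of the same length, the Tfap2c and Tbx3 regions with the largest difference towards Dll1- lack an AP-1 match, and for Tbx3 the strongest Dll1- only region is printed in its place. The strongest Dll1- only regions of Gata3, Foxa1, Elf5 and Spdef lack one as well, while the Elf5 region with the largest difference towards Dll1+ and the Tfap2a Dll1+ only region hold one. The counts over all 221 regions follow below.

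Depth differed between the lists. The Dll1+ list held 132872 rows and the Dll1- list 148923 rows, and the reads at a summit, which were recovered from the deposited values, had a median of 43.0 and 61.0. The lowest background of a list was 3.74 reads in Dll1+ and 7.20 reads in Dll1-, a ratio of 1.93. Over all shared regions the median ratio of Dll1+ to Dll1- reads was 0.614, and read ratios below are given on the log2 scale relative to that median. The labelled cell type was checked by promoters in the lists: all 6 of 6 epithelial markers (Epcam, Krt8, Krt18, Cdh1, Cldn3, Cldn7) had a promoter region in both lists. Of the cells removed in the sort, 1 of 6 immune, 1 of 5 endothelial and 1 of 4 erythroid markers had one in each list. Fibroblast markers, which the sort did not remove, had a promoter region for 1 of 6 genes in the Dll1+ list and 3 of 6 in the Dll1- list. Regions nearest to the fibroblast markers numbered 31 shared, 1 Dll1+ only and 32 Dll1- only.

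Of the 221 regions of the 9 genes, 142 (64.3%) were in both lists, 25 (11.3%) in the Dll1+ list only and 54 (24.4%) in the Dll1- list only. Over all union regions, 66.4% were shared, 9.01% were Dll1+ only and 24.6% were Dll1- only, so the 9 genes together lay near the background in each class. Without Gata3, which had the most regions, 59.7% were shared, 12.8% Dll1+ only and 27.5% Dll1- only. Of the regions in 1 list only, 31.6% (22.4 to 42.5%) were Dll1+ only for the 9 genes and 26.8% for all regions, a value inside that interval. The Dll1+ only regions had 13 to 122 reads with a median of 27.0, and 2 of 25 lay above the 50th percentile of their list by fold enrichment, the ratio of reads to local background at the summit (8.00%, 2.22 to 25.0%, against 15.4% of all Dll1+ only regions). The Dll1- only regions had 18 to 97 reads with a median of 38.0, and 12 of 54 lay above the 50th percentile (22.2%, 13.2 to 34.9%, against 21.1% of all Dll1- only regions).

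The genes differed in which list held their unshared regions. Ehf had 8 Dll1+ only and 5 Dll1- only regions, and it was the sole gene of the 9 with more of the former. That order rested on the setting: within 50 kb of the TSS Ehf had 4 and 5, and with rows of at least 5-fold enrichment it had 1 of each, while Gata3 had 10 and 7 and Foxa1 2 and 0. In the main setting the Dll1+ only share of the unshared Ehf regions was 61.5% (35.5 to 82.3%), an interval above the 26.8% of all regions. Ehf had the highest such share of the genes with unshared regions, and the interval was not adjusted for that choice. Regions of 1 locus may also not be independent. Tbx3 had 1 Dll1+ only and 9 Dll1- only regions, and Spdef had 0 and 5. Tfap2c had 5 and 12, Gata3 had 6 and 13, Tfap2a had 1 and 5, and Foxa1 had 2 and 3. Elf5 had 2 of each. All 9 regions of Elf3 were shared. With so few unshared regions per gene, the intervals of every gene with unshared regions except Ehf held the value of all regions, as the plot of list membership shows.

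**Figure D1:**
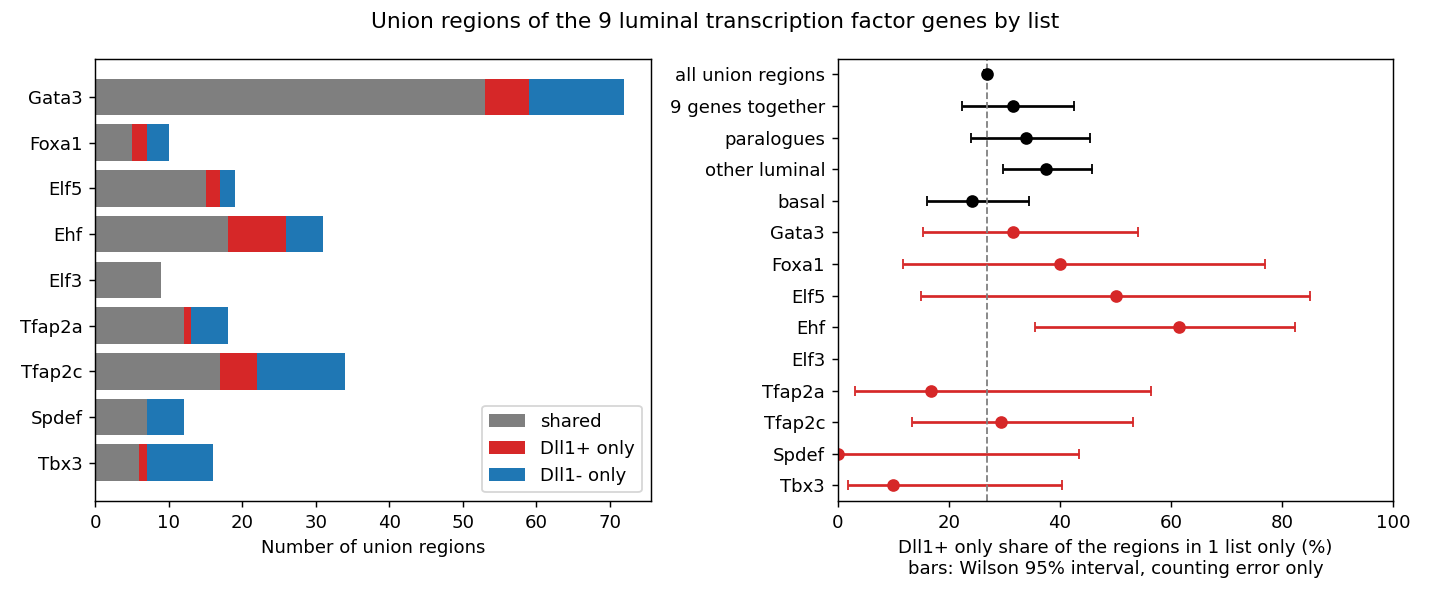
Left, number of union regions per gene in both lists (grey), the Dll1+ list only (red) and the Dll1- list only (blue). Right, Dll1+ only share of the regions in 1 list only, in percent with Wilson 95% intervals, for all regions, the 9 genes together, the lists set beside them (black) and each gene (red). The dashed line marks 26.8%, the share over all union regions, and Ehf at 61.5% lies farthest to the right.

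The strength of a shared region was compared as its percentile in each list, the rank of its strongest row by fold enrichment among all rows of that list. A difference of over 10 points counted as ranked higher. Of the 142 shared regions, 22 (15.5%) ranked higher in Dll1+ and 39 (27.5%) in Dll1-, against 15.2% and 25.1% of all shared regions. Without Gata3 the shares were 10.1% and 29.2%. The median difference, Dll1+ minus Dll1-, was -3.46 points (-5.07 to -1.55) for the 9 genes and -1.67 points for all shared regions. Reads gave the other order. Their log2 ratio relative to the median had a median of 0.15 (0.05 to 0.21) over the 142 regions, and 91 of 142 lay above 0. A change of over 2-fold in reads towards Dll1+ was seen in 6 regions (4.23%) and towards Dll1- in 4 (2.82%), against 3.22% and 3.71% of all shared regions. The local background at these regions, each list's taken relative to its lowest, was also higher in Dll1+: its log2 ratio had a median of 0.24 above that of all shared regions, and 98 of 142 lay above 0. A lower percentile in Dll1+ came with a read ratio above 0 in 39 regions, of which 25 also had a lower fold enrichment in Dll1+ and 14 did not, and 3 regions had the reverse. All 22 regions ranked higher in Dll1+ also had a read ratio above 0, and 30 of the 39 ranked higher in Dll1- had one below 0.

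**Figure D2:**
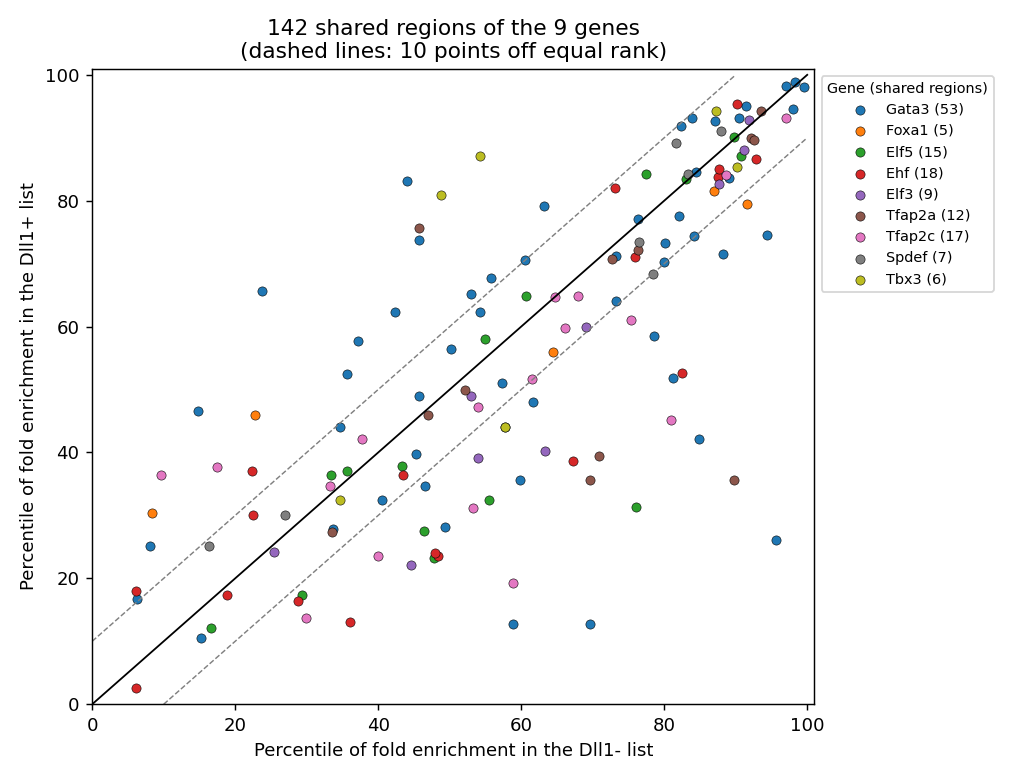
Percentile of fold enrichment of the 142 shared regions in the Dll1- list (horizontal) and in the Dll1+ list (vertical), 1 point a region and 1 color a gene, with the number of shared regions beside each gene. Dashed lines lie 10 points off equal rank, 22 regions lie above the upper line, and the Gata3 region at 95.6 in Dll1- and 26.1 in Dll1+ lies farthest below.

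Gata3 (chr2:9857078-9890034, minus strand) had the most regions, and 9 of its 72 lay within 50 kb of its TSS. Another 33 lay at 50 to 500 kb and 30 beyond 500 kb, up to 1232961 bp downstream, in a stretch where no other protein-coding TSS was nearer. This assignment rests on the choice of TSS. The sole protein-coding TSS of Gata3 in the annotation is at 9878600, and that of 4930412O13Rik, also protein-coding, lies 2652 bp from it. With 1 TSS per gene, taken from the gene record, which begins 11434 bp away, 68 of the 72 regions were nearest to 4930412O13Rik and 4 to Celf2, so the 72 regions below are those of the stretch and not of Gata3 alone. Its 53 shared regions spread from -69.6 to 41.9 points with a median of -1.59, and 13 ranked higher in each list. The direction was mixed among neighbors in this stretch. The region at chr2:9343192-9343638, intergenic and 535185 bp downstream, had 17 reads in Dll1+ and 136 in Dll1-, percentiles of 26.1 and 95.6 and a log2 read ratio of -2.30 (-3.12 to -1.56). It is the region whose window with a pair of AP-1 matches is printed above. The region at chr2:9032495-9032956, also intergenic and 845874 bp downstream, went the other way with 44 reads in Dll1+ and 26 in Dll1-, percentiles of 65.7 and 23.8 and a log2 read ratio of 1.46 (0.73 to 2.22). The strongest shared region, chr2:8729022-8729801, lay 1149188 bp downstream at the 98.1 and 99.6 percentiles, with 210 and 342 reads and a ratio of 0.00 (-0.25 to 0.25). The strongest Dll1- only region, chr2:9328269-9328798, had 73 reads, and the strongest Dll1+ only region, chr2:9780153-9780504, had 34. Within 50 kb the 5 shared regions had a median difference of -9.8 points, at 50 to 500 kb the 25 shared regions had one of 5.6 points, and beyond 500 kb the 23 shared regions had one of -4.3 points, so the medians did not follow distance in 1 direction.

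Foxa1 (chr12:57540628-57546916, minus strand) showed opposite differences on either side of the start of its protein-coding transcript, position 57546121. The gene record itself starts 795 bp farther upstream, at 57546916, within the region called upstream here. That upstream region, chr12:57546374-57547169, had 201 reads in Dll1+ and 458 in Dll1-, percentiles of 79.5 and 91.6 and a log2 read ratio of -0.48 (-0.73 to -0.24). The region over the start of the coding transcript, chr12:57545634-57546157, had 103 and 107 reads, percentiles of 46.0 and 22.8 and a ratio of 0.65 (0.25 to 1.05). A region in the intron, 1006 bp downstream of that start, had 77 and 78 reads and ranked 22.1 points higher in Dll1+. The upstream region held the AP-1 consensus and both downstream regions lacked it. The remaining 2 shared regions lay in or beside introns of Mipol1, over 100 kb downstream, and differed by less than 10 points. With the 2 Dll1+ only regions of 14 and 25 reads and the 3 Dll1- only regions of 23 to 30 reads, these make up the 10 regions of Foxa1.

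Elf5 (chr2:103411688-103450989, plus strand) and Ehf (chr2:103263433-103303278, minus strand) are neighbors that point away from each other. They code for factors of 1 family, and together they held 50 regions. None of the 15 shared Elf5 regions ranked higher in Dll1+ and 5 ranked higher in Dll1-, while 13 of 15 had a log2 read ratio above 0, with a median of 0.31 (0.16 to 0.68). In Ehf, 2 of 18 shared regions ranked higher in Dll1+ and 6 in Dll1-, with a median read ratio of 0.27 (-0.05 to 0.45). The median percentile differences of -3.72 in Elf5 and -4.33 in Ehf rested on the column ranked: by −log10 p-value they were 1.29 and 0.30. The local background differed as well: its log2 ratio lay 0.53 above that of all shared regions in both genes. In Elf5 the median background was 2.95 times the lowest of the list in Dll1+ and 1.52 times in Dll1-, and in Ehf it was 4.39 and 2.87 times. The interval of the read ratio lay above 0 for Elf5 and included 0 for Ehf.

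Single regions of the pair departed from this. In Elf5, chr2:103382206-103383322, which lies 28924 bp upstream in an intron of BC016548, had 26 reads in Dll1+ and 75 in Dll1- and percentiles of 31.3 and 76.0. In Ehf, chr2:103343620-103343980, which lies 40522 bp upstream in an intron of A930006I01Rik, had 33 and 104 reads and percentiles of 52.6 and 82.5. The log2 read ratios were -0.82 (-1.53 to -0.16) and -0.95 (-1.56 to -0.37). Both hold an AP-1 match in the windows printed above. The strongest shared region of Ehf, chr2:103238775-103239462, had 128 and 123 reads, percentiles of 95.3 and 90.2 and a read ratio of 0.76 (0.39 to 1.13). Among unshared regions, the strongest Dll1+ only region of the 9 genes by fold enrichment was at Ehf, chr2:103183443-103183913, 100082 bp downstream in an intron of Gm13874. It had 63 reads on the lowest background, a fold enrichment of 13.5 and a percentile of 89.5. At the median ratio of shared regions, 103 reads would stand at such a region in Dll1-. The Dll1- list held no row there, and the reads at a place without a row are not known. The remaining 7 Dll1+ only regions of Ehf had 20 to 60 reads, and 4 of the 8 lay over 50 kb downstream of the gene.

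Elf3 (chr1:135253575-135258568, minus strand) was the sole gene with every region shared, while with rows of at least 5-fold enrichment it had 5 shared and 2 Dll1- only regions. Its 9 regions had differences of -23.1 to 1.0 points with a median of -5.07, 3 ranked higher in Dll1-, and 2 of 9 had a log2 read ratio above 0, with a median of -0.13 (-0.43 to 0.04). The strongest, over its TSS at chr1:135258217-135258994, had 310 reads in Dll1+ and 492 in Dll1- and percentiles of 92.8 and 91.9. A second promoter region, chr1:135259108-135259383, had 72 and 158 reads and percentiles of 22.1 and 44.6. The TSS region differed by 1.0 points, and the 4 regions upstream of it by -23.1 to -9.1 points.

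Tfap2a (chr13:40715302-40738376, minus strand) had close to equal regions at the gene and large differences away from it. Its 3 promoter regions differed by -6.2 to -2.2 points, with log2 read ratios of 0.05, 0.08 and 0.21. The region at chr13:40683702-40684193, intergenic and 44996 bp downstream, had 20 reads in Dll1+ and 105 in Dll1-, percentiles of 35.6 and 89.8 and a read ratio of -1.69 (-2.46 to -0.99). Of its neighbors, chr13:40694455-40694898 at 34267 bp downstream had 43 and 37 reads and percentiles of 75.7 and 45.7. The windows of both are printed above, the first with a pair of AP-1 matches and the second with none. The strongest shared region, chr13:40651002-40651507, had 81 and 173 reads and percentiles of 94.3 and 93.6. The sole Dll1+ only region of Tfap2a, chr13:40659583-40659838, was weak, with 13 reads, and held an AP-1 match.

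Tfap2c (chr2:172549593-172558622, plus strand) had 17 of its 34 regions shared, 32 of 34 in intergenic sequence, and a median difference of -6.45 points (-16.20 to -0.05), the lowest of the 9 genes by fold enrichment but not by −log10 p-value, where it was -2.47 and that of Elf3 -6.44. Its median log2 read ratio was 0.03 (-0.06 to 0.33). The largest differences lay close together downstream. At chr2:172638498-172638961 there were 75 reads in Dll1+ and 57 in Dll1-, with a read ratio of 1.10 (0.58 to 1.62). At chr2:172656364-172656919 there were 15 and 47 reads, with a ratio of -0.94 (-1.89 to -0.08). Its strongest shared region, chr2:172623631-172624257, had 112 and 193 reads, percentiles of 93.1 and 97.1 and a ratio of -0.08 (-0.43 to 0.26). The Dll1+ only region with the most reads of the 9 genes, 122, was at chr2:172642720-172643090, where the background was 7.02 times the lowest and the percentile 36.9; it was located after its values were seen. Of its promoter regions, chr2:172550185-172551101 had 202 and 402 reads and differed by -14.3 points, and chr2:172548832-172549742 had 191 and 320 reads and differed by -6.4 points.

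Spdef (chr17:27714352-27728955, minus strand) was the sole gene of the 9 with no promoter region in either list. Its nearest shared region on the gene side lay 3331 bp inside the gene, with 74 reads in Dll1+ and 169 in Dll1- and a log2 read ratio of -0.49. The strongest shared region, chr17:27707858-27708641, lay downstream in an intron of Pacsin1, with 227 and 331 reads and percentiles of 91.1 and 87.9. The 7 shared regions had a median difference of 3.06 points (-10.25 to 8.70), or -0.56 ranked by −log10 p-value, and none ranked over 10 points higher in Dll1+. The largest difference towards Dll1-, -10.2 points at chr17:27740606-27741633, came with 40 and 127 reads and a read ratio of -0.96 (-1.51 to -0.44). The 5 unshared regions were all in the Dll1- list, with 27 to 79 reads.

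Tbx3 (chr5:119670669-119684724, plus strand) had the smallest shared part, 6 of 16 regions. Its promoter region, chr5:119670220-119671171, had 119 reads in Dll1+ and 257 in Dll1-, percentiles of 85.3 and 90.2 and a log2 read ratio of -0.41 (-0.73 to -0.09). Far upstream the shared regions went the other way. At chr5:119204549-119205270, 465759 bp upstream, there were 64 and 43 reads, percentiles of 87.1 and 54.3 and a read ratio of 1.28 (0.70 to 1.87). The strongest shared region, chr5:119310016-119310773, had 122 and 109 reads and a ratio of 0.87 (0.48 to 1.25). Interspersed with them were Dll1- only regions, of which the strongest, chr5:119167721-119168176, had 72 reads and the 77.8 percentile and holds the pair of AP-1 matches printed above. At the median ratio, 44.2 reads would stand there in Dll1+, where the list held no row and the reads are not known. Of the 9 Dll1- only regions of Tbx3, 4 lay above the 50th percentile of the list.

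**Figure D3:**
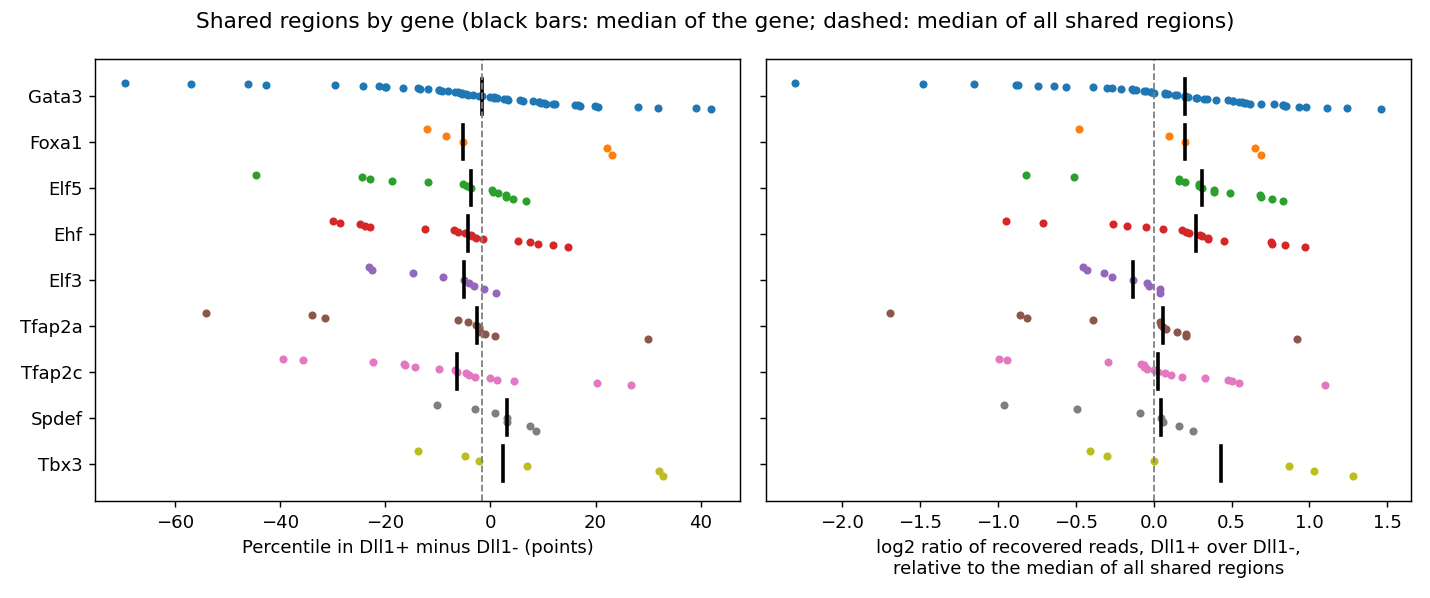
Shared regions by gene, 1 point a region. Left, percentile in Dll1+ minus percentile in Dll1-, in points. Right, log2 ratio of recovered reads relative to the median of all shared regions. Black bars are medians of the gene and dashed lines medians of all shared regions (-1.67 points and 0.00). Elf5 and Ehf lie left of the line by percentile (-3.72 and -4.33) and right of it by reads (0.31 and 0.27), and ranked by −log10 p-value their medians are 1.29 and 0.30.

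**Figure D4:**
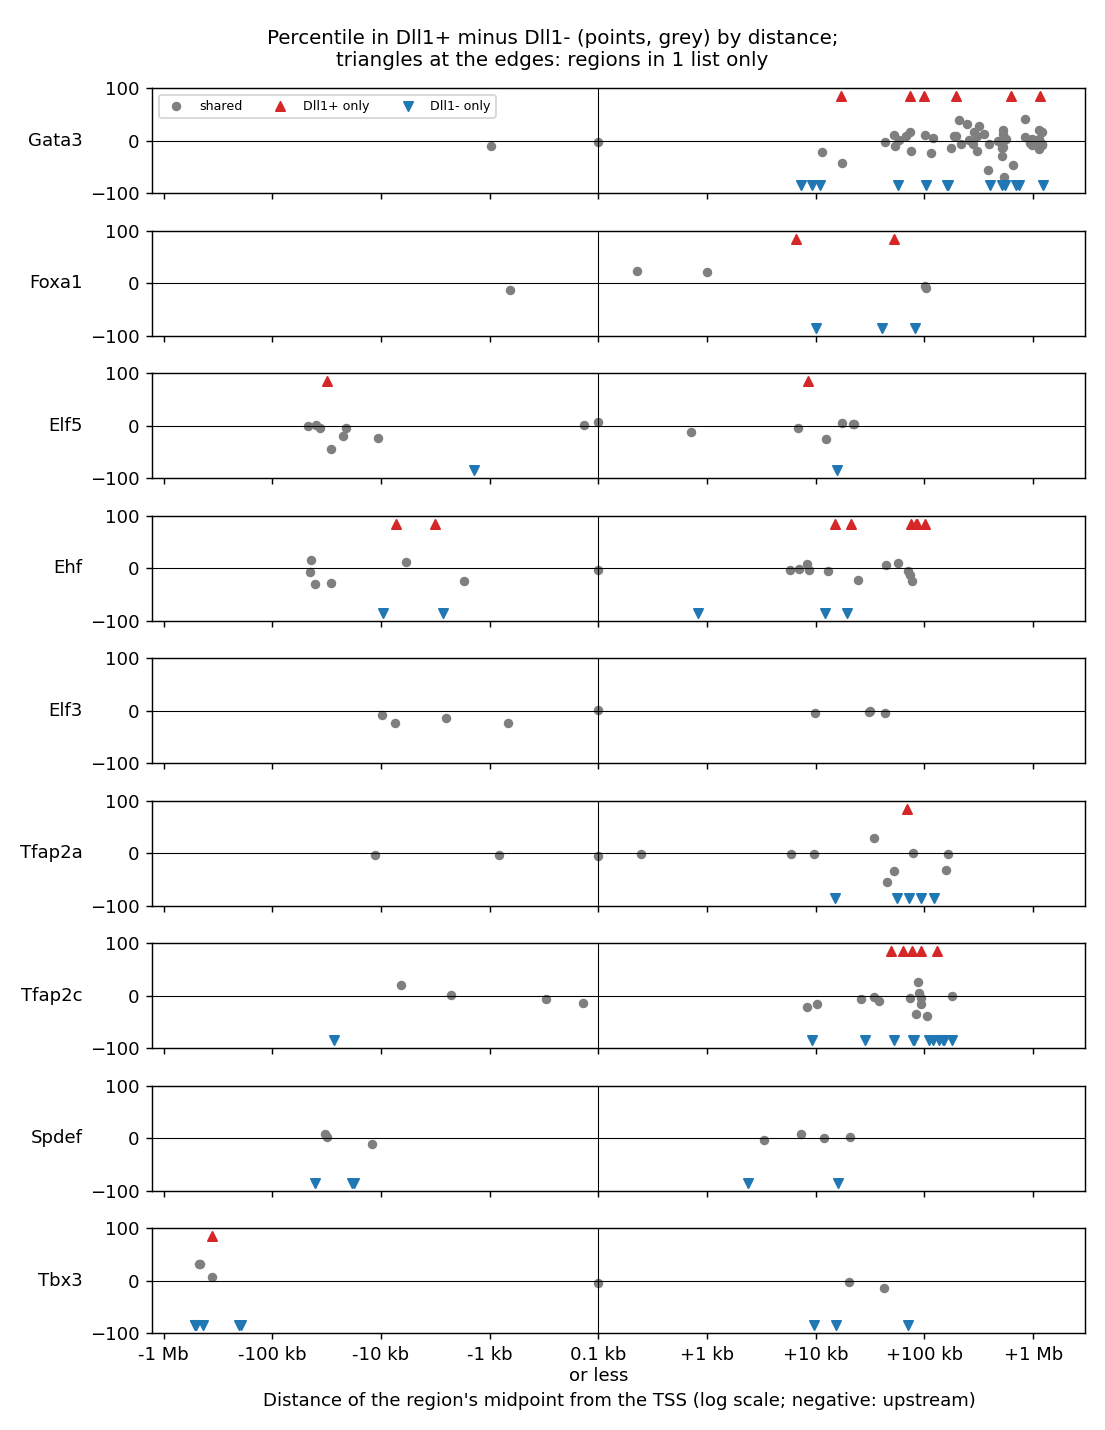
Regions of each gene by distance from the TSS (horizontal, log scale, upstream negative). Grey points give the percentile in Dll1+ minus Dll1- of shared regions, and triangles at the upper and lower edge are Dll1+ only (red) and Dll1- only (blue) regions, which have no difference. The Foxa1 points on either side of the coding transcript's start (-12.1 and 23.1) go opposite ways, and those of Gata3 far downstream spread from -69.6 to 41.9 points.

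Promoter regions, which overlap the span from 1000 bp before a TSS to 100 bp after it, numbered 15 in 8 of the 9 genes, and all 15 were in both lists. With a span of 2500 bp to each side of a TSS, 20 of 23 were. Over all union regions, 9693 of the 10933 with their midpoint in a promoter were in both lists. The differences of the 15 promoter regions of the 9 genes ran from -22.5 to 23.1 points. Of these, 11 of 15 lay within 10 points, against 59.8% of all shared regions and 80.9% of those with their midpoint in a promoter. Their log2 read ratios ran from -0.48 to 0.65 and 10 of 15 lay above 0. Beside Foxa1, Elf3 and Tbx3, the Gata3 pair at chr2:9878336-9879011 and chr2:9879205-9879938 had 462 reads each in Dll1+ and 540 and 654 in Dll1-, with read ratios of 0.48 (0.30 to 0.66) and 0.20 (0.03 to 0.38). The local background there was 14.5 and 14.8 times the lowest in Dll1+ and 9.31 and 9.51 times in Dll1-, and the percentile differences were -2.1 and -9.8 points. At Elf5, chr2:103411364-103412149 had 55 and 80 reads and chr2:103423606-103424243 had 209 and 260, with read ratios of 0.16 and 0.39. At Ehf, chr2:103302552-103303991 had 214 and 302 reads and a ratio of 0.21 (-0.05 to 0.47).

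Classed by their midpoint alone, 61.1% of the 221 regions were intergenic, 29.4% intronic and 5.88% (13 regions) in promoters, against 35.6%, 47.8% and 9.17% of all union regions. The 2 further promoter regions above overlap a promoter but have their midpoint in an exon. The assignment to the nearest TSS sets how much gene-free sequence a gene receives: the 72 Gata3 regions were 79.2% intergenic, and without them the share was 52.3%. Consensus sequences were sought in both orientations, up to 100 bp to each side of a region's strongest summit. AP-1 was in 68 of the 221 regions (30.8%, 25.1 to 37.1%) and in 21.7% of all union regions. These 2 sets differ in genomic class, as given above, and the comparison was not matched for it. The share followed the list: 1 of 25 Dll1+ only regions (4.00%, 0.710 to 19.5%) and 25 of 54 Dll1- only regions (46.3%, 33.7 to 59.4%) held it. Among shared regions, 1 of 22 ranked higher in Dll1+ (4.55%, 0.807 to 21.8%), 21 of 81 within 10 points (25.9%) and 20 of 39 ranked higher in Dll1- (51.3%, 36.2 to 66.1%) held it. Over all union regions the shares were 6.92% of Dll1+ only, 35.5% of Dll1- only, 7.18% of those ranked higher in Dll1+ and 32.3% of those ranked higher in Dll1-. Both Dll1- classes lay above both Dll1+ classes in the 9 genes and over all regions, but the order of the 2 Dll1- classes was the other way round in the 9 genes. In the Dll1- classes the values of all regions were inside the interval of the 9 genes for Dll1- only and below it for ranked higher. The part that cells with fibroblast marker regions had in these values was not tested.

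By gene, AP-1 was in 9 of 13 Gata3 regions ranked higher in Dll1- and in 1 of 13 ranked higher in Dll1+. It was in 4 of 5 Dll1- only regions of Ehf and 0 of its 8 Dll1+ only regions, in 4 of 5 Dll1- only regions of Tfap2a, in 6 of 12 of Tfap2c and in 5 of 9 of Tbx3. It was in 4 of 13 Dll1- only regions of Gata3, 1 of 5 of Spdef and 0 of 3 of Foxa1. Of the 9 regions with the largest difference towards Dll1-, 1 a gene, 7 held it, and those of Tfap2c and Tbx3 did not. Of the 9 with the largest difference towards Dll1+, 1 did, an Elf5 promoter region that differed by 6.8 points.

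**Figure D5:**
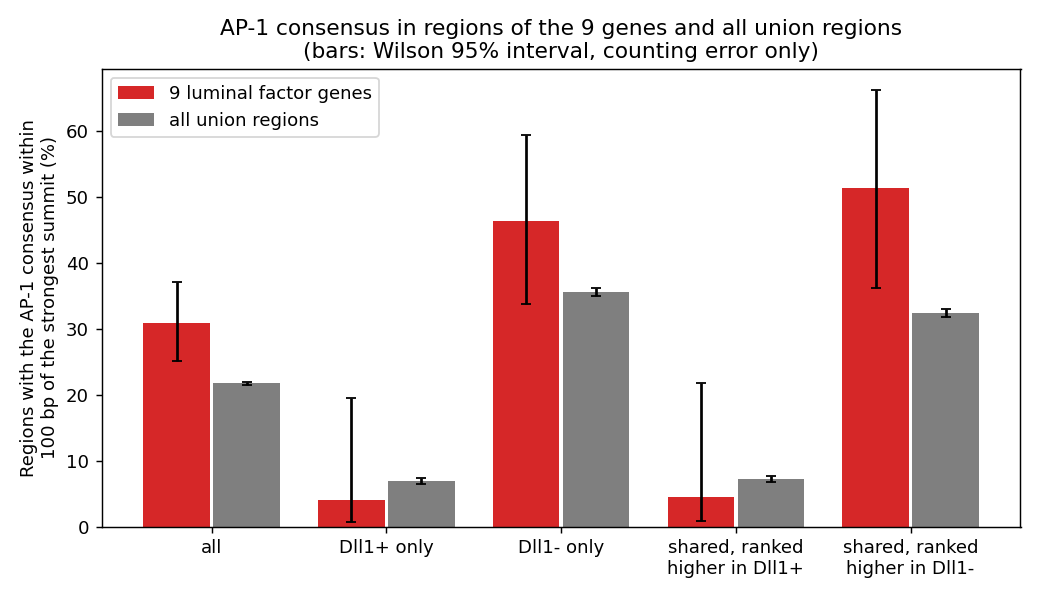
Percent of regions with the AP-1 consensus within 100 bp of the strongest summit, for the 9 genes (red) and all union regions (grey), with Wilson 95% intervals. The shares of the 9 genes are 4.00% of Dll1+ only and 4.55% of shared regions ranked higher in Dll1+, against 46.3% and 51.3% in the corresponding Dll1- classes.

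The consensus sequences of the members' own families were near the background. The ETS consensus AGGAAG was in 33.0% of the 221 regions and 31.6% of all regions, the GATA consensus AGATAA in 4.52% and 5.49%, and the forkhead consensus TGTTTAC in 3.62% and 3.73%. The AP-2 consensus GCCNNNGGC was in 15.8% (11.6 to 21.2%) and 11.6%, and the T-box consensus AGGTGTGA in 0.905% and 1.01%. Forkhead matches were in 3 of 25 Dll1+ only regions (4.17 to 30.0%) and 0 of 54 Dll1- only regions (0 to 6.64%), against 5.91% and 3.19% of all regions of these classes. Within 50 bp of the summit they were in 1 of 25 (4.00%) and 0 of 54, against 3.19% and 1.66%. In that window forkhead was in 0.905% of the 221 regions and 1.96% of all regions, and GATA in 1.36% and 2.38%. There ETS was in 18.6% and 17.7%, AP-2 in 6.79% and 6.71%, and T-box in 0% and 0.518%. A match describes a sequence and not a bound factor.

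Other gene lists gave the setting. The 16 paralogues of the members (among them Gata6, Tfap2b and Tbx2) had 166 regions, of which 95 were shared, 24 Dll1+ only and 47 Dll1- only, with a median difference of -3.61 points and a median log2 read ratio of -0.02. The 25 other luminal genes had 491 regions, 352 shared, 52 Dll1+ only and 87 Dll1- only, with medians of -2.19 points and 0.03. The 14 basal genes had 183 regions, 104 shared, 19 Dll1+ only and 60 Dll1- only, with medians of -3.22 points and 0.01. The Dll1+ only share of the unshared regions was 33.8% for paralogues, 37.4% (29.8 to 45.7%) for other luminal genes and 24.1% (16.0 to 34.5%) for basal genes, beside 31.6% for the 9 genes and 26.8% for all regions. The interval of the other luminal genes alone lay above the value of all regions. The genes with the largest excess in that list went both ways: Prlr, the prolactin receptor, had 6 Dll1+ only and 0 Dll1- only regions, Nfib had 15 and 25, and Runx1 had 2 and 12. The list named basal also held factors of the mesenchymal transition, such as Twist2 (1 and 14), Zeb1 (1 and 10) and Zeb2 (7 and 9). Its share of 24.1% is therefore not that of basal cell genes alone. The part that fibroblasts had in these counts was not tested. The median read ratio of 0.15 was the highest of the 4 lists, and without Gata3 it was 0.10 (0.04 to 0.21) over 89 shared regions of the remaining genes.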

How the data were processed

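The series holds ATAC-seq of 3 Dll1+ and 4 Dll1- samples. Per the methods, the authors processed the replicates of a group together with the pipeline ENCODE provides for ATAC-seq and deposited 1 optimal peak list a group. The aligner, peak caller and thresholds are not given in the sources used here. The deposited fold enrichment (a ratio of reads to local background at the summit) and the −log10 p-value deposited with each row are the authors' own. The deposited −log10 q-value and score were not used. The submitters' processing notes name mm10 and GRCm38, and 0 rows ran past a chromosome end of GRCm38.p6.

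Rows were merged into regions (Python 3.11.15, pandas 2.3.3, numpy 2.4.6, scipy 1.17.1) and assigned by GENCODE M21 (basic). Reads and background were recovered by solving fold = (reads + 1)/(background + 1) together with the Poisson −log10 p-value, to a tolerance of 0.01, which solved all 132872 Dll1+ rows and all but 1 of 148923 Dll1- rows. Where a region held several rows, the strongest was used. Sequences were read from GRCm38.p6 (pysam 0.24.0). Coordinates are 1-based. Shares carry Wilson 95% intervals, medians order-statistic intervals, and read ratios exact (Clopper-Pearson) intervals. Scripts were tested on simulated data. Regions named were taken from each gene's promoter regions, its strongest shared region, its strongest region in each list only and its largest difference in each direction, and not all of these are named. All regions of Foxa1, a Spdef region 3331 bp inside the gene and the Tfap2c Dll1+ only region with 122 reads were named after their values were seen. The members, gene lists and consensus sequences were chosen with earlier results of these data known. The authors' read counts per region and sample were not analysed here.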

Additional observations from a re-analysis of the deposited data

How the results depend on the processing

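Each list is a pool, so single tumors could not be left out. No paired analysis was possible because the 2 pooled lists, on which all values here rest, hold no values per sample. The design itself would allow one, since 3 tumors gave both samples, but the authors' read counts per region and sample were not analysed here. The counts of 142 shared, 25 Dll1+ only and 54 Dll1- only regions became 76, 18 and 28 with rows of at least 5-fold enrichment, and 73, 9 and 23 within 50 kb of the TSS. At 5-fold, 23.0% of the regions of the 9 genes were Dll1- only against 16.0% of all regions, unlike the main values of 24.4% and 24.6%, and 14.8% against 13.5% were Dll1+ only. Within 50 kb, 21.9% against 23.6% were Dll1- only and 8.57% against 7.87% Dll1+ only. Counting an unshared region only above its list's median fold left 2 Dll1+ only and 12 Dll1- only regions, so the Dll1+ only share of unshared regions was 14.3% (4.01 to 39.9%) against 21.1% of all regions, the reverse order of the main values of 31.6% and 26.8%. At 5-fold the 9 genes had a Dll1+ only share of 39.1% (26.4 to 53.5%) and all regions 45.9%. Scaling the Dll1- list to the Dll1+ background gave 29228 Dll1- only regions over the genome against 29318. Both lists reach down to a −log10 p-value of 2.00. Why the scaling changed so little was not tested, and nothing about depth is drawn from it.

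Relative to all shared regions, the median difference of -1.78 points turned to 0.85 when rows were ranked by −log10 p-value, and to 0.15 (log2) with reads. The 22 regions ranked higher in Dll1+ became 6 within 50 kb (8.22% of shared regions against 13.1% of all), 11 with 1 TSS per gene (11.6% against 15.2%) and 12 at a threshold of 20 points (8.45% against 6.39%), so they lay below or above the background with the setting. The 39 ranked higher in Dll1- became 21 within 50 kb (28.8% against 25.2%) and 24 at 20 points (16.9% against 11.1%). Ranked by −log10 p-value they went the other way, with 34 ranked higher in Dll1- (23.9% against 26.8%) and 28 in Dll1+ (19.7% against 14.2%). That ranking also turned the median differences of Elf5 from -3.72 to 1.29, of Ehf from -4.33 to 0.30 and of Spdef from 3.06 to -0.56 points, and put Elf3 at -6.44 and Tfap2c at -2.47. AP-1 was in 21.3% of regions within 50 bp of the summit (15.9% of all regions). Promoters of 2500 bp each side gave 23 regions, of which 20 were shared. The excess of Dll1+ only over Dll1- only regions turned from -7 to 3 for Gata3 and from -1 to 2 for Foxa1 at 5-fold, to 1 for Gata3 with 1 TSS per gene (4 shared, 2 Dll1+ only and 1 Dll1- only region in place of 53, 6 and 13, and 160 regions in all in place of 221), and from 3 to -1 for Ehf within 50 kb. Of the values of the 9 genes together under other settings, 25 stayed near the main value, 15 moved and 2 turned. Near was a wide class: 95 shared regions with 1 TSS per gene counted as near the main 142. The 25 also include the values with the scaled Dll1- list. The cause of these shifts was not tested.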
